A study of Hydra vulgaris with 40 samples.

Results

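The genes described here are 120 gene models of the freshwater polyp Hydra vulgaris that were chosen for lower values late in head regeneration and late in budding, out of 17438 gene models with values. They were found by a rule on the mean of both samples of a condition plus 1. Over the adult tissues, ordered from high to low, the highest value had to be under 1.5 times the next, the second under 2 times the third, and the fourth under 4 times the fifth, so that no gene restricted to one tissue was kept. The highest of 7 regeneration times had to be 0 h, with a mean of at least 5, and bud stage 1 had to be at least 1.2 times bud stage 10. The tissue conditions were met by 12019 genes, 6793 of these had the required level at 0 h, 1068 of these were highest at 0 h, and 214 of these also met the bud condition. From the 214 genes, the 120 with the largest ratio of 0 h to 48 h were taken. The last gene taken had a ratio of 1.39, with means of 7.15 at 48 h and 10.35 at 0 h, and the next gene, left out, also had 1.39 after rounding, with means of 43.04 at 48 h and 60.19 at 0 h.

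The series holds 40 RNA-seq samples, 2 for each of 20 conditions, from polyps of H. vulgaris that were starved for at least 1 day. Libraries were made by Smart-seq2, which amplifies cDNA before sequencing. The regeneration course has 14 samples of 1 animal each, taken at 7 times (0 and 2 h, 4 and 6 h, 12 and 24 h, and 48 h) after bisection between body regions R1 and R2. The labels give the piece taken as R2-R3 and the methods as the apical part of the animal, so which piece these values describe is not settled. The 16 budding samples come from bud heads, at stages 1, 3 to 8 and 10, and the 10 samples of the body map come from the foot, budding zone, body column, hypostome and tentacles of adults. The values are on the scale of TPM (transcript abundance relative to the library total), adjusted by the authors. Their depth is unknown, and counting intervals were not computed. In 18 of the 20 conditions both samples hold the same sorted values. Normalization within a condition gives such identity, and it leaves out any difference between replicates in the shape of the distribution. In bud stages 6 and 7, replicate 1 of stage 6 shares its sorted values with replicate 2 of stage 7, and replicate 2 of stage 6 shares them with replicate 1 of stage 7. The sorted values thus pair these samples otherwise than their labels do, and whether labels were exchanged was not tested. Rank correlations over genes did not settle it, with 0.901 and 0.956 in the pairs that share sorted values, against 0.923 between the samples labelled stage 6 and 0.95 between those labelled stage 7. Stages 6 and 7 stand for the labels here, and the main counts over bud stages are given with and without these 4 samples, an alternative chosen after seeing the data.

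Hydra keeps a steady flow of tissue. Epithelial cells of both layers divide along the body column, where interstitial stem cells also reside, and cells stop dividing as they are displaced into the tentacles, the tip of the hypostome or the foot. When the head is cut off, body column tissue at the wound builds a new head organizer, in which Wnt signalling acts, and a bud builds its head from body column tissue at the budding zone. The deposited values and the annotations used here pair none of these gene models with a gene name, so no function is given to any of them, and pathways or markers of cell types were not analysed. The 120 gene models lie on 105 of the 1527 scaffolds in the table, and 15 scaffolds carry a pair of them. In whole tissue, fewer cells of a type and less RNA per cell cannot be told apart.

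Most of the 120 genes had moderate levels. Their mean over the 40 samples had a median of 11.1, against 6.55 for all genes, 91 of the 120 were below 20, and the highest was at 264. At 48 h their levels ran from 1.53 to 218 with a median of 7.42, and at 0 h from 5.0 to 317 with a median of 14. The ratio of 0 h to 48 h ran from 1.39 to 4.38 with a median of 1.62, and 29 genes reached a ratio of 2. The ratio of bud stage 1 to stage 10 was smaller, with a median of 1.36 and a highest value of 2.84, and 41 genes reached 1.5. These values chose the genes and are given as a description.

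Sc4wPfr_1091.g16435 had the largest ratio of 0 h to 48 h. Its samples had values of 12.79 and 11.53 at 0 h, 3.62 and 8.33 at 2 h, 7.39 and 11.48 at 4 h, 4.96 and 13.24 at 6 h, 2.07 and 3.42 at 12 h, 4.33 and 9.36 at 24 h, and 1.96 and 2.05 at 48 h. Both samples at 12 h and both at 48 h lay below every sample of the other times, and the samples between 2 and 6 h were spread so widely that one of them was above 0 h. In the buds its samples had 6.46 and 2.49 at stage 10, against 12.56 and 6.17 at stage 1, so that the stages overlap. In the adult it was at 0.21 and 0.23 in the tentacles and at 1.55 and 0.25 in the hypostome, against 5.91 and 9.25 in body column, 10.41 and 9.56 in budding zone and 7.18 and 13.09 in foot samples. All 4 samples of the head tissues were thus below all 6 samples of the other tissues.

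Sc4wPfr_628.g32849 followed with means of 5.98 ± 1.05 at 48 h and 26.66 ± 5.69 at 0 h (SD, n = 2 each). Its samples had 30.69 and 22.64 at 0 h, 18.6 and 29.78 at 2 h, 17.92 and 16.53 at 4 h, 14.56 and 17.61 at 6 h, 18.26 and 4.35 at 12 h, 5.9 and 5.76 at 24 h, and 5.24 and 6.73 at 48 h. Both samples of 24 h and of 48 h were below both samples of every time up to 6 h, and the samples of 12 h lay far apart. In the buds it met the rule through a single sample. It was listed at 0 in replicate 1 and at 15.8 in replicate 2 of stage 10, against 22.9 and 14.69 at stage 1, and replicate 2 of stage 10 was above replicate 2 of stage 1.

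**Figure D1:**
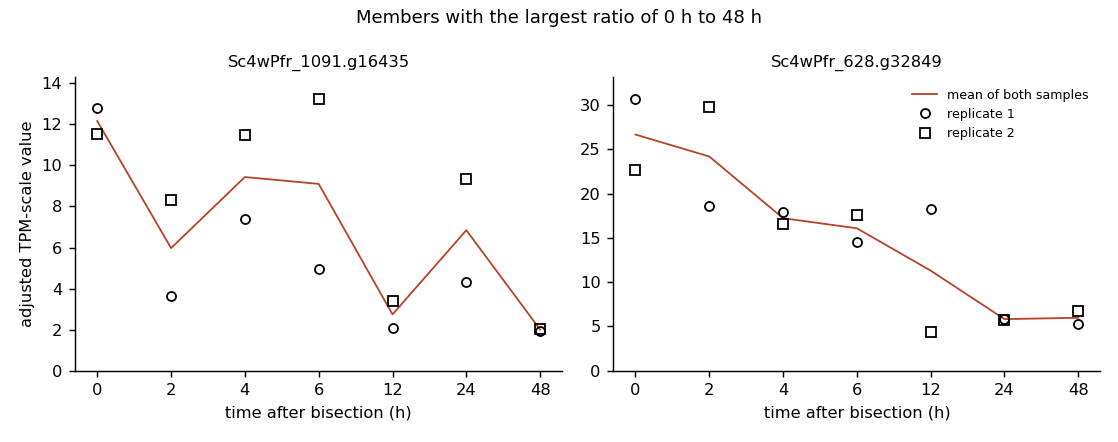
Values of the 2 genes with the largest ratio of 0 h to 48 h, on the adjusted TPM scale (y axis), against the time after bisection in hours (x axis, equal steps). Circles and squares are the samples of replicate 1 and 2 and the line joins the means. For Sc4wPfr_1091.g16435 both samples at 48 h lie near 2 and both at 0 h lie above 11, while for Sc4wPfr_628.g32849 the samples at 12 h lie far apart, at 18.26 and 4.35.

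The level of the 120 genes did not go down evenly over regeneration. The share of the log2 difference between 0 h and 48 h that was reached had a median of 19.3% at 2 h, 29.2% at 4 h and 36.6% at 6 h, then 88.4% at 12 h and 64.3% at 24 h. At 12 h, 51 genes were at or below their level at 48 h, and at 24 h only 29 were. Of the 7 times, 48 h was the lowest for 61 genes, 12 h for 42 and 24 h for 13, and the lowest was 2, 4 or 6 h for 4 genes. The rule ranked the genes by 0 h over 48 h, so the count at 48 h is only a description. Among the times from 2 to 48 h, the lowest was 48 h for 23.4% of all genes, 12 h for 19.3% and 24 h for 14.2%. Among the 5 times between 2 and 24 h, 12 h was the lowest for 83 of the 120 genes (69.2%), and it was also the most frequent lowest time over all genes (29.3%). The dip at 12 h was seen in both samples. The median over the 120 genes of log2(value + 1) minus the mean of the gene over the course was -0.27 and -0.35 in the samples at 12 h and -0.12 and -0.08 in the samples at 24 h. Over all genes the same medians lay between -0.064 and -0.045 in the samples of both times, and over the 6793 genes that met the tissue and level conditions they were -0.15 and -0.16 at 12 h.

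The 120 genes differed in when most of the difference was reached. In 43 genes, called early here, the level at 6 h had reached at least 50% of it. Counting the levels at 2 and 4 h as well, 61 genes reached 50% at one of these times, since some genes were higher again at 6 h. At 24 h, 38 genes were under 50%, of which 12 were early, and the other 26 are called late. The remaining 51 genes were neither early nor late. Sc4wPfr_1091.g16435 is late by this definition, because of its samples at 24 h, although its values at 12 h were already near those of 48 h.

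In 115 of the 120 genes both samples at 48 h were below both samples at 0 h, as they were in 37.2% of all genes. The rule used this contrast, and such a share is also common among broadly expressed genes, with 4059 of the 6793 genes (59.8%) that met the tissue and level conditions. In budding, both samples of stage 10 were below both samples of stage 1 in 81 of the 120 genes, against 19.4% of all genes and 25.3% of the 6793. The rule used this contrast as well, and in 39 genes the difference that met it lies within the overlap of the samples. Both conditions without overlap were met by 78 of the 120 genes, by 9.99% of all genes and by 17.1% of the 6793. Since the rule chose on both contrasts, these shares are only a description.

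Each condition has 2 samples, and the rule was therefore also applied to 1 replicate at a time and the values were read in the replicate left out. The 120 genes chosen on replicate 1 share 36 with the genes described here (30.0% of each list), those chosen on replicate 2 share 26 (21.7% of each list), and the lists of the single replicates share 4 with each other (3.3% of each list). The difference in regeneration was seen again in replicate 2 for genes chosen on replicate 1, and less so in replicate 1 for genes chosen on replicate 2. Most genes of these lists are not among the 120 described here. Both samples of 18 of the 20 conditions hold the same sorted values, so the replicate left out is not fully separate. For genes chosen on replicate 1, the ratio of 0 h to 48 h had a median of 1.65 in replicate 2, and 92.5% of them were higher at 0 h than at 48 h, against a median of 1.22 and 72.7% over the 6793 genes that met the tissue and level conditions on both replicates. For genes chosen on replicate 2, the median in replicate 1 was 1.28 and the share 85.0%, against 1.19 and 71.8%. In budding, the replicates differed. Stage 10 was below stage 1 in 55.8% of the genes chosen on replicate 1 when read in replicate 2, against 49.8% of the 6793 genes, and the median ratio of stage 1 to stage 10 was 1.04, against 0.999. For genes chosen on replicate 2 and read in replicate 1, the share was 68.3%, against 49.9%, and the median ratio was 1.14, against 0.999. That 0 h was the highest of the 7 times held in the replicate left out for 20.0% and 15.8% of the genes, against 14.5% and 14.8% of the 6793 genes.

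**Figure D2:**
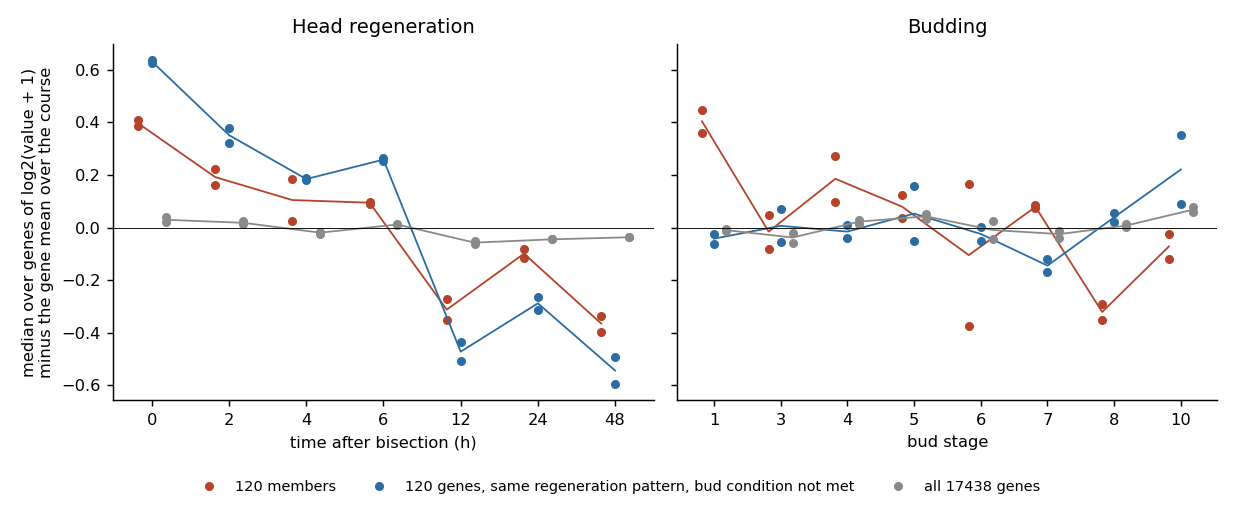
Median over genes of log2(value + 1) minus the mean of the gene over the course (y axis), in each sample of head regeneration (left, hours after bisection) and budding (right, stages), for the 120 genes (red), for 120 genes with the same regeneration pattern that did not meet the bud condition (blue) and for all 17438 genes (grey). Points are samples and lines join the means of both samples. The red points lie low at 12 h and 48 h and at bud stage 8, and the samples of bud stage 6 lie far apart, at -0.37 and 0.16.

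Bud stages 3 to 8 were not used by the rule. They give the course of the 120 genes between early and late buds in samples that did not choose them. The slope of log2(value + 1) over the 6 stages was fitted in their 12 samples with limma for all 17438 genes. None of the 120 genes passed an adjusted p of 0.05 in either direction, and neither did any other gene (0% of all genes, smallest limma adjusted p = 0.654). Since no gene passed, this threshold cannot tell whether the 120 genes declined. At an unadjusted p under 0.05, 8 of the 120 genes had a slope below 0 and 1 had a slope above 0, against 2.44% and 5.15% of all genes and 3.39% and 2.8% of the 6793 genes that met the tissue and level conditions. In each fit below where the count below 0 was higher, the share of the 6793 genes was above that of all genes. The count below 0 rests on few samples, and both shares moved with it. It was 2 without replicate 1 of stage 8 (0.94% of all genes), 2 without replicate 2 of stage 8 (1.19%) and 4 without replicate 2 of stage 4 (1.93%). It was 15 without replicate 2 of stage 3 (4.66% of all genes), 15 without replicate 2 of stage 7 (4.0%) and 18 without replicate 1 of stage 3 (4.36%). Leaving out stages 6 and 7 gave 21 (17.5%), against 4.92% of all genes and 6.85% of the 6793.

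The slope was below 0 in 88 of the 120 genes (73.3%), in 50.3% of all genes and in 58.7% of the 6793. The slopes of the 120 genes ran from -0.47 to 0.19 per stage, with a median of -0.058 and a median standard error of 0.06. In 58 of the 120 genes (48.3%) the slope lay within 1 standard error of 0, against 59.5% of all genes and 56.9% of the 6793. With stages 6 and 7 left out, 86 of the 120 slopes were below 0 (71.7%), against 47.7% of all genes and 56.5% of the 6793. By timing in regeneration, the slope was below 0 in 26 of 43 early genes, 38 of the 51 genes that were neither, and 24 of 26 late genes. The difference between these groups was not tested.

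**Figure D3:**
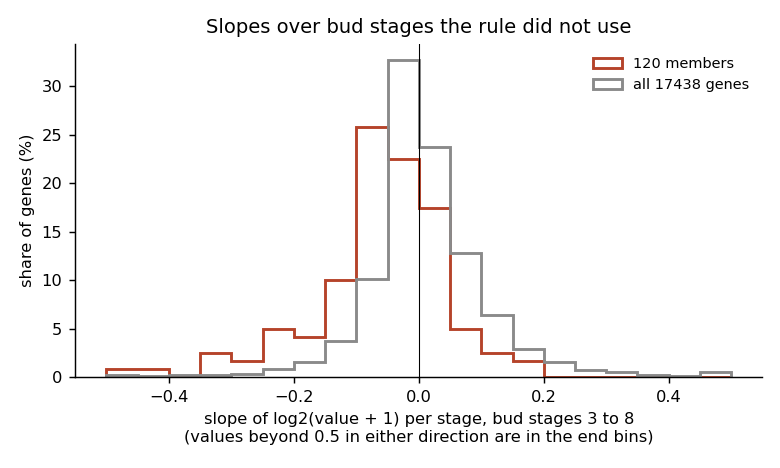
Share of genes in percent (y axis) by the slope of log2(value + 1) per stage over bud stages 3 to 8 (x axis), for the 120 genes (red) and all 17438 genes (grey). The red outline is shifted to the left of 0, with 73.3% of the genes below 0, against 50.3% of all genes.

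Stage 8 was the low point of these stages. It was the lowest of stages 3 to 8 for 65 of the 120 genes (54.2%), against 20.3% of all genes and 31.7% of the 6793. Stage 4 was the highest for 51 (42.5%), against 24.5% of all genes and 39.6% of the 6793. Among stages 3, 4, 5 and 8 alone, stage 8 was the lowest for 75 of the 120 genes (62.5%), against 34.6% of all genes and 42.3% of the 6793. Both samples of stage 8 were below both samples of stage 3 in 41 of the 120 genes (34.2%), against 13.6% of all genes and 19.7% of the 6793, and above them in 10 (8.33%), against 27.4% of all genes and 20.8% of the 6793. Measured against the mean of each gene over stages 3 to 8, the 120 genes had medians of -0.28 and -0.27 in the samples of stage 8. The samples labelled stage 6 lay apart, with medians of -0.31 and 0.19, while those of all genes were -0.05 and 0.03 and those of the 6793 genes -0.17 and 0.06. The level did not go down further after stage 8. The 120 genes had a median level of 8.77 at stage 10, which the rule chose to be low, and of 8.09 at stage 8.

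In a fit of all 40 samples with a mean for each condition, which takes the spread from replicates alone, 4 of the 120 genes fell over stages 3 to 8 and none rose, against 1.61% and 3.17% of all genes (limma, adjusted p under 0.05). These 4 genes are 3.33% of the 120, and 2.62% of the 6793 genes fell in the same fit. At an unadjusted p under 0.05, this fit gave 29 genes with a slope below 0 and 0 with a slope above 0, against 7.58% and 11.8% of all genes and 13.6% and 7.57% of the 6793. Without the samples of stages 6 and 7, the same fit called 27 of the 120 genes as falling (22.5%) and 0 as rising, against 5.57% and 10.2% of all genes and 9.77% and 5.24% of the 6793. This count thus depends on these 4 samples. In 18 of the 20 conditions the replicates share their sorted values, so the spread in these fits, and with it their p-values, may be too small. This was not tested. The 2 steepest of the 4 genes are described here, and they were chosen after their values were seen. Sc4wPfr_950.g24008 had values of 11.55 and 5.95 at stage 3, 12.9 and 15.23 at stage 4, 3.94 and 5.37 at stage 5, 3.39 and 6.38 at stage 6, 6.26 and 11.99 at stage 7, and 1.35 and 1.68 at stage 8. Both samples of stage 8 were below all other bud samples, and stage 10, with 9.62 and 7.29, was higher again. Its slope was -0.32 per stage in both fits, with a standard error of 0.05 in the fit of all samples (limma adjusted p = 0.000754) and of 0.12 in the fit of 12 samples (limma adjusted p = 0.654). With stages 6 and 7 left out, the slope was -0.46, with a limma adjusted p of 1.87e-06 in the fit of all other samples and of 0.0704 in the fit of bud samples.

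Sc4wPfr_68.g2328 had values of 6.55 and 20.54 at stage 3, 21.72 and 14.01 at stage 4, 12.95 and 7.94 at stage 5, 7.46 and 16.03 at stage 6, 14.38 and 17.08 at stage 7, and 2.71 and 3.54 at stage 8. Again both samples of stage 8 were the lowest of the course. The slope was -0.24 per stage, with a standard error of 0.07 in the fit of all samples (limma adjusted p = 0.045) and of 0.12 in the fit of 12 samples (limma adjusted p = 0.654). It was -0.15 without replicate 1 of stage 8 and -0.36 without replicate 1 of stage 3. Leaving out stages 6 and 7 gave -0.39, with a limma adjusted p of 0.00114 in the fit of all other samples and of 0.14 in the fit of bud samples. In regeneration its samples had 5.9 and 5.22 at 48 h, against 11.82 and 10.54 at 0 h, and those of Sc4wPfr_950.g24008 had 2.71 and 2.62 at 48 h, against 6.63 and 7.64 at 0 h. The times do not overlap in either gene.

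**Figure D4:**
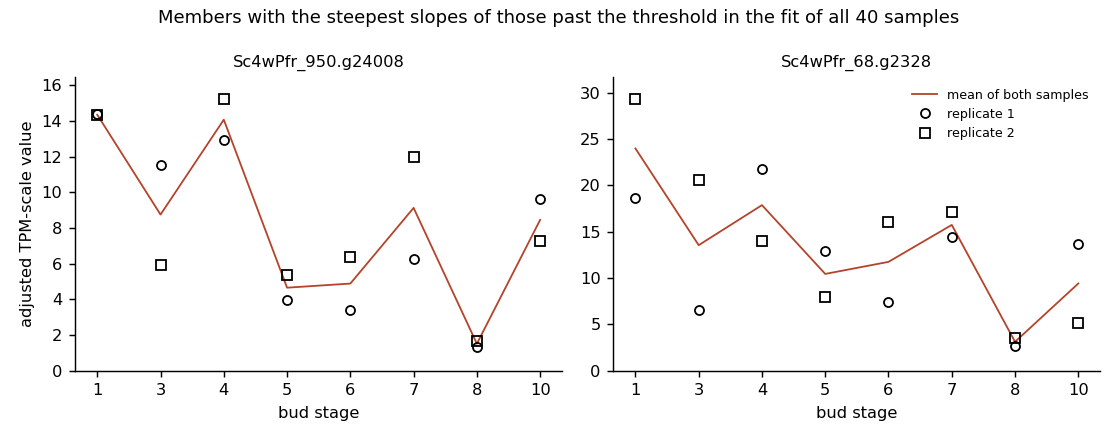
Values of Sc4wPfr_950.g24008 and Sc4wPfr_68.g2328 on the adjusted TPM scale (y axis) at the 8 bud stages (x axis, equal steps). Circles and squares are the samples of replicate 1 and 2 and the line joins the means. The samples of stage 8 are the lowest of each gene, at 1.35 and 1.68 for the first and at 2.71 and 3.54 for the second, and stage 10 is higher.

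In the adult body, the 120 genes were most often highest in the trunk and lowest in the tentacles. The rule limits how far the tissues may differ but not which tissue is high, and the values are given without a test, beside the 6793 genes that met the tissue and level conditions. The budding zone was the highest tissue for 56 of the 120 genes (46.7%), against 23.2% of the 6793, and the body column for 33 (27.5%), against 21.4%. The hypostome was the highest for 14 (11.7%), against 26.1%, the foot for 9 (7.5%), against 5.33%, and the tentacles for 8 (6.67%), against 24.0%. The tentacles were the lowest tissue for 84 of the 120 genes (70.0%), against 48.3% of the 6793. The median difference from the body column, on the log2(value + 1) scale, was -0.84 in the tentacles, -0.34 in the foot, -0.30 in the hypostome and 0.07 in the budding zone. Over the 6793 genes it was -0.22 in the tentacles, -0.14 in the foot, 0.04 in the hypostome and 0.03 in the budding zone. With 1 added to each mean, the ratio of the highest to the lowest tissue ran from 1.25 to 13.0 with a median of 2.08. Without this 1, the ratios of genes near 0 in a tissue would be larger.

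In 77 of the 120 genes (64.2%), the body column and the budding zone were both above the tentacles and the hypostome, as in 34.1% of the 6793 genes. All 4 samples of these trunk tissues were above all 4 samples of the head tissues in 63 of the 120 genes (52.5%), against 22.0% of the 6793 and 15.1% of all genes. Sc4wPfr_950.g24008 was at 3.25 and 2.72 in tentacles and at 3.61 and 2.23 in hypostome, against 11.19 and 18.43 in body column and 21.33 and 26.07 in budding zone. Sc4wPfr_68.g2328 was at 4.98 and 4.51 in the tentacles and at 5.89 and 4.86 in hypostome, against 19.67 and 31.83 in body column and 35.39 and 35.4 in budding zone. For both genes the foot lay within the range of the body column samples, with 15.62 and 15.34 for the first gene and 23.31 and 20.98 for the second.

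**Figure D5:**
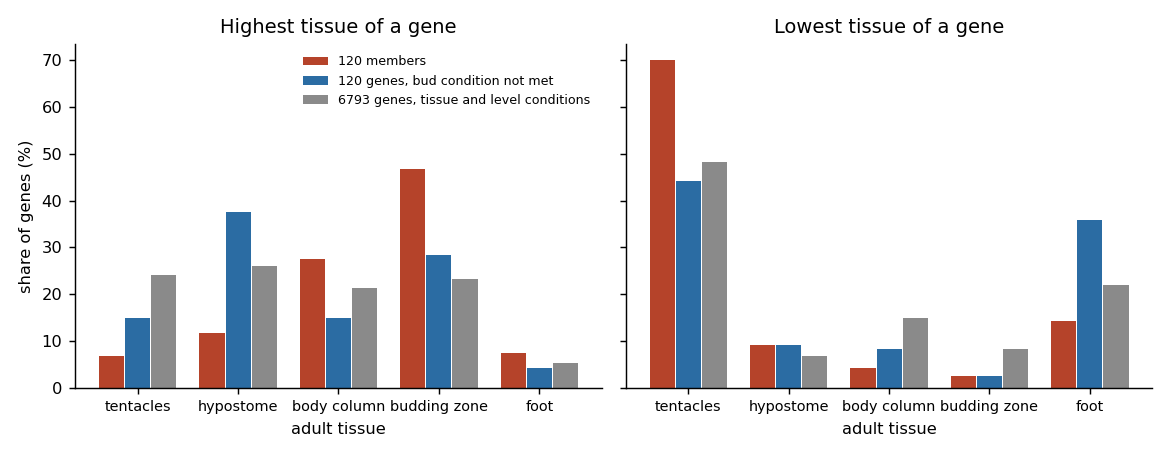
Share of genes in percent (y axis) whose highest (left) or lowest (right) adult tissue is the one on the x axis, for the 120 genes (red), the 120 genes with the same regeneration pattern that did not meet the bud condition (blue) and the 6793 genes that met the tissue and level conditions (grey). The tentacles are the lowest tissue for 70.0% of the 120 genes and the budding zone is the highest for 46.7%.

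Genes with higher trunk than head tissues more often had a slope below 0 over the bud stages, both among the 120 and among the 6793 genes. Of the 77 genes with higher trunk than head tissues, 64 had a slope below 0 over bud stages 3 to 8 (83.1%), and 24 of the other 43 did (55.8%). Among the 6793 genes the shares were 78.3% of the 2318 genes with higher trunk tissues and 48.5% of the other 4475. Stage 8 was the lowest of stages 3 to 8 in 62.3% of the 77 genes and in 55.9% of the 2318 genes, and in 39.5% of the other 43 genes and 19.2% of the other 4475. With stages 6 and 7 left out, the slope was below 0 in 80.5% of the 77 and 55.8% of the other 43 genes, and in 80.1% of the 2318 and 44.2% of the other 4475. This split of the genes was made after the values were seen.

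Values at 0 h were often above those of the adult tissues. In 68 of the 120 genes (56.7%) the mean at 0 h was above all 5 adult tissues, against 39.1% of the 6793 genes and 44.9% of the 1068 genes that were also highest at 0 h. At 48 h, 27 of the 120 genes (22.5%) were below all 5 tissues, against 16.3% of the 6793 and 30.4% of the 1068. The median difference from the body column was -0.54 at 48 h and 0.24 at 0 h on the log2(value + 1) scale. Over the 6793 genes it was -0.09 at 48 h and 0.17 at 0 h, and over the 1068 genes -0.21 and 0.27. The rule favours high values at 0 h and low values at 48 h, and the samples of the body map and of the courses cannot be told apart from the batches that the authors removed, since these are not named.

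The genes most like them are those with the same regeneration pattern that did not meet the bud condition. There are 854 such genes, and the 120 with the largest ratio of 0 h to 48 h were compared. The lists were not matched on this ratio. Its median was 2.13 in compared genes with higher trunk than head tissues and 2.09 in the others, against 1.67 and 1.58 here. Differences between the lists at 0 h, 12 h and 48 h thus cannot be told apart from this larger fall. The genes compared had the dip at 12 h as well, with medians of -0.44 and -0.51 in its samples. Over bud stages 3 to 8, the slope was below 0 in 88 of the 120 genes described here and in 62 of the 120 compared (51.7%), where the median slope was -0.002 per stage. Stage 8 was the lowest of these stages for 65 genes described here and for 10 compared (8.33%), for which stage 7 was the most frequent lowest stage (38.3%). With stages 6 and 7 left out, the slope was below 0 in 86 genes described here and in 47 compared (39.2%), and stage 8 was the lowest for 75 and for 31 (25.8%). In the genes compared, the slope was below 0 about as often with higher trunk tissues (51.4%) as without (51.8%). At 48 h, 27 genes described here and 54 compared were below all 5 adult tissues. At 0 h, 68 genes described here (56.7%) and 80 compared (66.7%) were above all 5, so this trait is not particular to the genes described here. The trunk tissues were both above the head tissues in 77 and in 37 genes (30.8%), and the hypostome was the highest tissue in 14 and in 45 genes (37.5%). No test was run on these differences between lists.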

How the data were processed

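RNA-seq values of 40 samples were analysed. Per the labels and the methods, the authors used Trimmomatic 0.35 on the reads, Bowtie 1.2 for mapping to a transcriptome and RSEM 1.2.31 for TPM, followed by ComBat for batches and by smooth quantile normalization. The table they deposited was read as a signal, an adjusted TPM scale with sums between 997030 and 1014380 per sample, and the test planned for TPM was kept. Columns were matched to samples by name. The 120 genes and the lists were chosen with earlier results of these data known. Genes above 0 in at least 2 of the fitted samples were tested as log2(value + 1) with limma 3.58.1 (lmFit, eBayes with a trend) in R 4.3.3. Tests were two-sided, with Benjamini-Hochberg adjustment over the genes tested and a threshold of 0.05. The fit was tried on simulated data with straight slopes and noise of the size seen within stages. The simulated slopes were steeper than those of most of the 120 genes. That simulation does not show how the fit does with flatter slopes or where stages depart from a line. The p-values set a slope against the spread of the samples fitted. In the fit of 12 samples this spread includes departures of the stages from a line, and in the fit of all 40 it comes from replicates alone. The genes named were the 2 with the largest ratio of 0 h to 48 h and, since none passed over bud stages 3 to 8, 2 chosen after their values were seen. Of the gene identifiers, 0 matched the RefSeq table used, and no genome position or sequence was used here. Alternatives changed the pseudocount (0.1), the filter (at least 1 in 2 samples, or none), the scaling (quantile or median ratio), the block (replicate number), the contrast (stage 8 against stage 3), the samples (all 40, or leaving some out) and the list (single replicates, the first 60 genes, a bud ratio of 1.5). Python 3.11.15, pandas 2.3.3, numpy 2.4.6 and matplotlib 3.10.9 were used.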

Additional observations from a re-analysis of the deposited data

How the results depend on the processing

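No gene of the 120 passed the threshold over bud stages 3 to 8 under any alternative but 2. The fit of all 40 samples called 4 as falling, against 1.61% of all genes and 2.62% of the 6793 that met the tissue and level conditions. The same fit without stages 6 and 7 called 27, against 5.57% and 9.77%. The count of slopes below 0 ran from 82 to 95 when single samples were left out, while the share of the 6793 genes ran from 55.8% to 62.3%. The count was 78 of 120 genes chosen on replicate 1 and 77 of 120 chosen on replicate 2. It was 46 of the 60 genes with the largest ratio and 45 of the 62 genes with a bud ratio of 1.5. In the fit used for these lists, the slope was below 0 in 58.7% of the 6793 genes and 50.3% of all genes. The lists chosen on 1 replicate lay nearer to the share of the 6793 than the 120 genes did (73.3%). The count below 0 at an unadjusted p under 0.05 was 29 in the fit of all samples, 14 with quantile normalization, 21 in the bud samples and 38 in all samples without stages 6 and 7 (chosen after seeing the data), and from 2 to 18 when single samples were left out. The share of all genes moved too. It was 7.58% in the fit of all samples, 4.7% with quantile normalization, and, without stages 6 and 7, 4.92% in bud samples and 9.83% in all samples. Over the 6793 genes it was 13.6%, 6.77%, 6.85% and 17.3% in the same order. The count below 0 was 4 for the genes chosen on replicate 1, 4 for those chosen on replicate 2, 4 for the first 60 genes and 3 with a bud ratio of 1.5. In the fit used for these lists, the share was 3.39% of the 6793 genes. The count above 0 was 2 for stage 8 against stage 3, where the share was 10.8% of all genes and 6.96% of the 6793. It was 0 in the fit of all samples with stages 6 and 7 (11.8% of all genes) and without them (17.3% of all genes). It was also 0 for the genes chosen on replicate 1 and with a bud ratio of 1.5. The median ratio of 0 h to 48 h became 1.65 in replicate 2 for genes chosen on replicate 1 and 1.28 in replicate 1 for genes chosen on replicate 2. The slope of Sc4wPfr_628.g32849, 0.05 per stage, was -0.02 without replicate 1 of stage 8. Causes were not tested, apart from shorter lists giving smaller counts.

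The replicate numbers did not pair the bud samples, since 1 of 15 correlations of their deviations was over 0.1 (lowest -0.258, highest 0.361). With the replicate number as a block, 0 genes passed the threshold and the slope was below 0 in 88. The fit of 12 samples takes departures of the stages from a line as spread, and the fit of all samples does not. The depth limiting these values is unknown.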
